A study of Mus musculus with 6 samples.

Results

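The replication-dependent histone genes encode the linker histone H1 and the 4 core histones H2A, H2B, H3 and H4 that package newly made DNA. They were taken as every row of the count table whose symbol begins with Hist1h, Hist2h, Hist3h or Hist4h, with the 1 row whose symbol ends in -ps left out, which gave 69 of the 54429 genes listed. Hist1h2al stayed in by this rule, although RefSeq lists it under a pseudogene name, H2af-ps2. The 69 members were 6 H1, 20 H2A, 18 H2B, 12 H3 and 13 H4 genes, of which 65 passed the filter on low counts and were tested.

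The libraries came from primary aortic endothelial cells (EC) of adult wild-type C57BL/6 mice, bought as primary cells and cultured. They were transduced with a lentiviral vector that carried Meis1 (Meis1-OE, n = 3) or with a vector carrying yellow fluorescent protein alone (YFP-CTRL, n = 3), so both groups had been infected, sorted as YFP+CD31+VEC+ cells and then grown to confluency before harvest. Meis1 is a homeodomain transcription factor, and the comparison asked which genes change when adult EC are forced to express it. The RNA was total RNA depleted of ribosomal RNA, and the 6 libraries are named here by group and by the letter in the table's column names.

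Each library held between 34176642 and 47956605 estimated counts. Meis1 itself had 135325, 157828 and 149221 counts in the Meis1-OE libraries and 39, 58 and 85 in the YFP-CTRL libraries, which matched the labels in all 6. Of 10 endothelial genes, the defining markers Pecam1 (768 to 1160 CPM, read counts scaled to a common library size) and Cdh5 (1181 to 2627 CPM) were abundant in every library. In edgeR's quasi-likelihood fit, after Benjamini-Hochberg adjustment, 1 of the 10 was higher in Meis1-OE (Vwf) and 1 was lower (Tek). The log2 fold change was positive for 6 of the 10 and negative for 4. DESeq2, the alternative model, called 1 higher and 3 lower. The 10 summed to 3465 to 4350 CPM in Meis1-OE and to 4497 to 6182 CPM in YFP-CTRL. Among 10 fibroblast and smooth muscle genes, Lum was at 0 in every library and Col1a1 stayed below 0.2 CPM, and the summed level of the 10 was 15.7 to 17.8 CPM in Meis1-OE and 34.9 to 54.2 CPM in YFP-CTRL. Of these 10, 3 passed the filter on low counts, and edgeR called 0 in either direction (1 lower at an unadjusted p under 0.05). DESeq2 called 1 lower. The highest ratio of YFP-CTRL C to YFP-CTRL A among the 3 was 96.3. The macrophage markers C1qa, C1qb, Tyrobp and Adgre1 were at 0 in every library, and the 10 macrophage and blood genes summed to 69.8 to 106 CPM in Meis1-OE and 65.1 to 140 CPM in YFP-CTRL, nearly all of it Cd68. Of these 10, 3 were tested and edgeR called 0 in either direction, with 2 higher in Meis1-OE at an unadjusted p under 0.05. The part of these other markers in the histone values was not tested.

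As background, these genes are switched on when a cell enters S phase and are shut down when DNA synthesis ends, so that histone supply follows DNA replication. Their transcripts typically have no introns and, alone among animal mRNAs, end in a conserved stem-loop instead of a poly(A) tail. The stem-loop is bound by SLBP and is cut downstream with the help of the U7 small nuclear RNA. Libraries primed on poly(A) lose most of these mRNAs, whereas total RNA libraries such as these keep them. Replacement histones such as H3.3 are also made outside S phase, from ordinary polyadenylated mRNAs.

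Most members lie in the large Hist1 cluster. In RefSeq (GRCm38.p6, the assembly also called mm10), 54 of the 56 Hist1 members lay on chr13:21715711-23934913, Hist1h2al lay apart at chr13:51200084-51203066 and Hist1h2ap had no match. The other clusters held 10 Hist2 members on chr3:96219885-96270192, 2 Hist3 members on chr11:58948911-58955192 and the single Hist4 member on chr6:136803993-136804431. In the GENCODE vM1 annotation, 60 of the 69 had a single exon, and 8 overlapped another gene. Counting was not stated to use strand, so the reads of overlapping genes cannot be told apart.

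The stem-loop is shown because it is the feature that sets these mRNAs apart and because its letters differed between H4 and the other classes. The search asked for GG, any 2 bases, CTTTT, any base, AG, any 2 bases and CC on the transcribed strand of the 3' UTR annotated in GENCODE vM1 (built on the older NCBIM37 assembly, so no positions are given). It matched 43 of 58 members with an annotated 3' UTR (74.1%), against 15 of 19857 other genes (0.0755%). The matches were 5 of 5 H1, 11 of 15 H2A, 8 of 16 H2B, 9 of 11 H3 and 10 of 11 H4 genes, and they began 22 to 59 bases after the stop codon (median 32). Of the 15 members without a match, 8 had an annotated 3' UTR of 1 to 40 bases (4 H2A, 3 H2B and 1 H3), mostly too short to reach a site at that distance. The H2A count thus depends on how far the annotation extends, and the H2B and H3 counts do so only in part. The rest had longer 3' UTRs and still no match: the H2B genes Hist1h2bc (322 bases), Hist1h2bq (1776), Hist1h2br (1803), Hist2h2bb (1117) and Hist2h2be (2192), and also Hist1h3g (95) and Hist1h4a (154). Below, the stem arms are in capitals and the loop is in lower case.
Most common form, found in 4 H1, 10 H2A, 8 H2B and 6 H3 genes: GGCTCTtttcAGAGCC
Form of 1 H1 and 3 H3 genes: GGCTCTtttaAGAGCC
Form of 1 H2A gene: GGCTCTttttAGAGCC
Form of 6 H4 genes: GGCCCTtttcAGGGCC
Form of 2 H4 genes: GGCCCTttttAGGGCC
Form of 2 H4 genes, Hist1h4b and Hist1h4j: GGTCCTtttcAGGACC
In these 43 mRNAs, the 33 outside H4 shared the stem arms GGCTCT and AGAGCC, and none of the 10 H4 mRNAs had them.

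The promoters of H4 also differed from those of the other classes. A RefSeq entry of 250 bases before to 50 bases after the annotated start was found for 61 members, and it was searched on both strands for 4 short motifs. CCAAT, the box bound by NF-Y, was in all of the H1 (6), H2A (17), H2B (16) and H3 (10) promoters but in 3 of 12 H4 promoters, and 41% of 26964 other promoters held it. GGTCCG, the core of the H4-specific element called site II that the factor HINFP binds, was in 11 of 12 H4 promoters, in 2 other members (Hist1h2bh and Hist1h3i) and in 9.42% of other promoters. The octamer ATTTGCAT, bound by OCT1, was in 7 of 17 H2A and 7 of 16 H2B promoters, in no H1, H3 or H4 promoter, and in 1.92% of other promoters. TATAAA was in 35 of 61 member promoters (57.4%) and in 15.6% of the others. These 5- to 8-letter matches describe the sequence, overlaps between motifs were not removed, and none is shown here to be a bound site.

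The 150 bases before the start are shown for 6 promoters with motif matches in capitals: 3 H4 genes, of which the first 2 had the lowest ratios of YFP-CTRL C to YFP-CTRL A in their class and the third a ratio of 4.53, and an H1, an H2B and an H3 gene that had high ratios in their classes (Hist1h4f and Hist1h2bm were picked after their values were seen). Hist1h4c lies at chr13:23698459-23698608, minus strand, Hist1h4d at chr13:23581418-23581567, plus strand and Hist1h4f at chr13:23551669-23551818, minus strand. Hist1h1b lies at chr13:21780626-21780775, minus strand, Hist1h2bm at chr13:21721894-21722043, plus strand and Hist1h3g at chr13:23535268-23535417, plus strand. The sequences are from RefSeq GRCm38.p6 and read 5' to 3' toward the gene.
Hist1h4c: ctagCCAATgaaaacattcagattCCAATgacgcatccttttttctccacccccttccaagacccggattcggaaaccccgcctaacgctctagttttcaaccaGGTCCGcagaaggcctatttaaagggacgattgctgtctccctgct
Hist1h4d: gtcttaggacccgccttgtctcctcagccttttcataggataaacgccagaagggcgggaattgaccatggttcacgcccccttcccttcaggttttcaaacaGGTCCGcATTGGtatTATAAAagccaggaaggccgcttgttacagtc
Hist1h4f: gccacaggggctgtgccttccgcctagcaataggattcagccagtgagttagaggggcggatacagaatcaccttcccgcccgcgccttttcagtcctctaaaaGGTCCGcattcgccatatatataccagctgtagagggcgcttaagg
Hist1h1b: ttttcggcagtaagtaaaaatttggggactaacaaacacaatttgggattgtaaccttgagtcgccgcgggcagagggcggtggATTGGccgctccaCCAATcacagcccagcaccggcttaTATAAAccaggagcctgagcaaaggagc
Hist1h2bm: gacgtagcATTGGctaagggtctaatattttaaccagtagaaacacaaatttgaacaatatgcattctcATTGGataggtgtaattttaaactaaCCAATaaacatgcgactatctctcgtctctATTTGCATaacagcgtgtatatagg
Hist1h3g: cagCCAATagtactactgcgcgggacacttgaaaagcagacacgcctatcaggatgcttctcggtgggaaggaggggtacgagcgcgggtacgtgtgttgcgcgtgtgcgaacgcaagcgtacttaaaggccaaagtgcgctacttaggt
All 3 H4 sequences hold GGTCCG, and CCAAT or its reverse ATTGG stands in Hist1h4c and Hist1h4d but not in Hist1h4f. In Hist1h2bm, the octamer follows 3 CCAAT matches, and the H1 promoter carries a CCAAT pair before its TATA box.

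**Figure D1:**
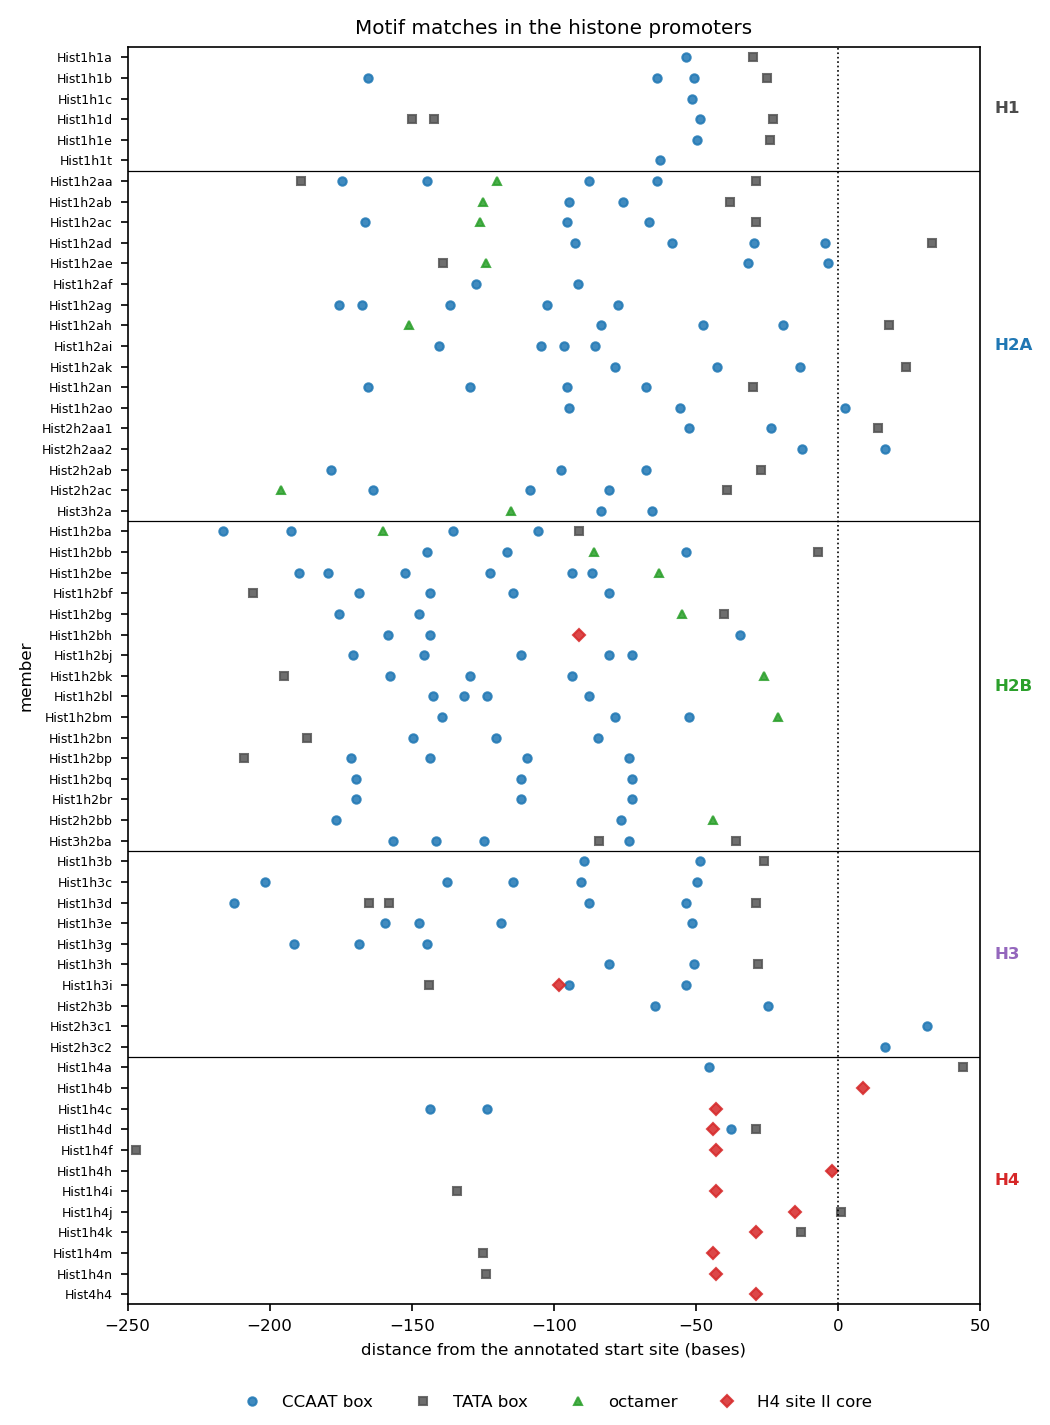
Matches to 4 motifs in the promoters of 61 histone genes (rows, grouped by class), with the distance of each match's centre from the annotated start site in bases on the x axis and the start as a dotted line. Red diamonds (GGTCCG) sit in 11 of 12 H4 rows and 2 other rows, blue circles (CCAAT) fill every H1, H2A, H2B and H3 row but 3 of 12 H4 rows, and green triangles (octamer) are in H2A and H2B rows.

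The first comparison set the summed histone level of each library beside its growth genes. CPM values here use library sizes scaled by the trimmed mean of M values (TMM). The 69 members summed to 6807, 6799 and 7067 CPM in Meis1-OE A, B and C, and to 1434, 3217 and 7244 CPM in YFP-CTRL A, B and C. As a share of the library's total count, this was 0.751%, 0.702% and 0.719% in Meis1-OE and 0.143%, 0.295% and 0.687% in YFP-CTRL. The Meis1-OE libraries lay close together, YFP-CTRL C lay just above them, and YFP-CTRL A and B lay far below the other 4. The means were 6891 ± 153 CPM in Meis1-OE and 3965 ± 2976 CPM in YFP-CTRL (SD, n = 3 each), a 1.74-fold ratio. The difference of these means in CPM was smaller than the SD of the control group. In bulk RNA, fewer cells in S phase and less histone RNA per cell cannot be told apart.

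A growth score, the mean log2(CPM + 1) of 22 S phase and 20 mitosis genes with no histone among them, showed the same grouping of libraries. It was 5.84, 5.84 and 5.87 in Meis1-OE and 3.86, 4.66 and 5.83 in YFP-CTRL. Mki67, the proliferation marker Ki-67, was at 671, 659 and 628 CPM in Meis1-OE and at 63.7, 205 and 589 CPM in YFP-CTRL. With 4 libraries within 5.83 to 5.87 and only YFP-CTRL A and B apart, no correlation over the 6 was computed. The 3 control libraries therefore span the growth score on their own, without any Meis1 vector.

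Along the control libraries, the histone sum kept a fixed ratio neither to the S phase list nor to the mitosis list. From YFP-CTRL A to YFP-CTRL B, the summed S phase list went from 659 to 710 CPM (1.08-fold), the mitosis list from 271 to 780 CPM (2.87-fold) and the histone sum was 2.24-fold higher. From YFP-CTRL B to YFP-CTRL C, the S phase list was 2.31-fold higher, the mitosis list 2.42-fold and the histone sum 2.25-fold. The ratio of the histone sum to the S phase sum was 4.25, 4.21 and 4.25 in Meis1-OE and 2.18, 4.53 and 4.41 in YFP-CTRL, so YFP-CTRL A alone stood apart. The ratio to the mitosis sum was 3.41, 3.36 and 3.54 in Meis1-OE and 5.28, 4.13 and 3.83 in YFP-CTRL, and it was highest in the control library with the lowest growth score. Each of these control values is 1 library, and no test was made between them.

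**Figure D2:**
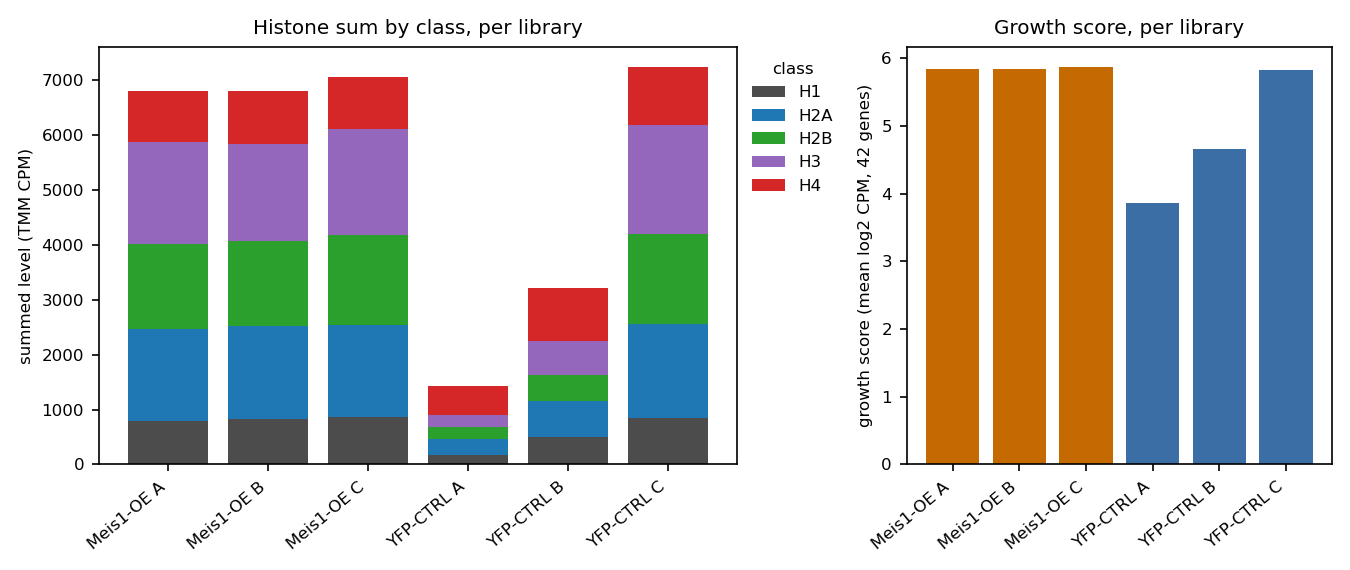
Left, the summed level of the histone genes in each library in TMM-scaled CPM, stacked by class. Right, the growth score (mean log2(CPM + 1) of 42 S phase and mitosis genes, no histones). YFP-CTRL A and B are low in both panels (1434 and 3217 CPM, scores 3.86 and 4.66), YFP-CTRL C lies with the Meis1-OE libraries, and the H4 part is the largest one in YFP-CTRL A and B.

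The 5 classes did not scale alike. H2A summed to 1675, 1695 and 1689 CPM in Meis1-OE and to 290, 653 and 1719 CPM in YFP-CTRL. H2B summed to 1547, 1543 and 1638 CPM in Meis1-OE and to 208, 470 and 1646 CPM in YFP-CTRL. H3 summed to 1862, 1780 and 1919 CPM in Meis1-OE and to 229, 626 and 1977 CPM in YFP-CTRL. These 3 classes, which form the nucleosome core with H4, were 5.93-, 7.91- and 8.63-fold higher in YFP-CTRL C than in YFP-CTRL A.

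H4 was the flattest class. It summed to 930, 951 and 963 CPM in Meis1-OE and to 528, 964 and 1060 CPM in YFP-CTRL, 2.01-fold from YFP-CTRL A to YFP-CTRL C. Its YFP-CTRL B value lay just above all 3 Meis1-OE values, whereas the members without H4 summed to 2253 CPM in YFP-CTRL B and to 5848 to 6105 CPM in Meis1-OE. H4 made up 13.7%, 14% and 13.6% of the histone sum in Meis1-OE, and 36.8%, 30% and 14.6% in YFP-CTRL. The ratio of the H4 sum to the H2B sum was 0.601, 0.616 and 0.588 in Meis1-OE and 2.54, 2.05 and 0.644 in YFP-CTRL. The H4 share was thus high in the 2 libraries with a low growth score and did not separate YFP-CTRL C from Meis1-OE.

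H1, the linker histones that bind DNA between nucleosomes, summed to 794, 830 and 859 CPM in Meis1-OE and to 179, 505 and 841 CPM in YFP-CTRL. By cluster, the Hist1 sum was 4.88-fold and the Hist2 sum 6.26-fold higher in YFP-CTRL C than in YFP-CTRL A. Inside the Hist1 cluster alone, the H4 genes summed to 781, 786 and 785 CPM in Meis1-OE and to 459, 848 and 881 CPM in YFP-CTRL, so the flatter H4 values were also seen among genes of 1 cluster.

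Member by member, the level in YFP-CTRL C was set against that in YFP-CTRL A for the 63 tested members with more than 3 counts in both. It was at least 2-fold higher for 57 of 63 (90.5%), against 9.95% of 15690 genes tested, and at least 5-fold higher for 40 of 63 (63.5%), against 1.6% of genes. These compare 1 library with 1 library and carry no test. The median ratio was 7.14 over the members, 0.995 over all genes, 2.62 over the S phase list and 6.56 over the mitosis list. By class, the medians were 9.92 for H1 (5 genes), 8.15 for H2A (18), 8.89 for H2B (17), 9.43 for H3 (11) and 2.57 for H4 (12), and the H4 ratios ran from 0.986 to 4.61. YFP-CTRL A and B were both below the other 4 libraries for 57 of 65 tested members (87.7%), which held for 24.6% of genes. This count was 7 of 12 for H4 and 50 of 53 for the rest.

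**Figure D3:**
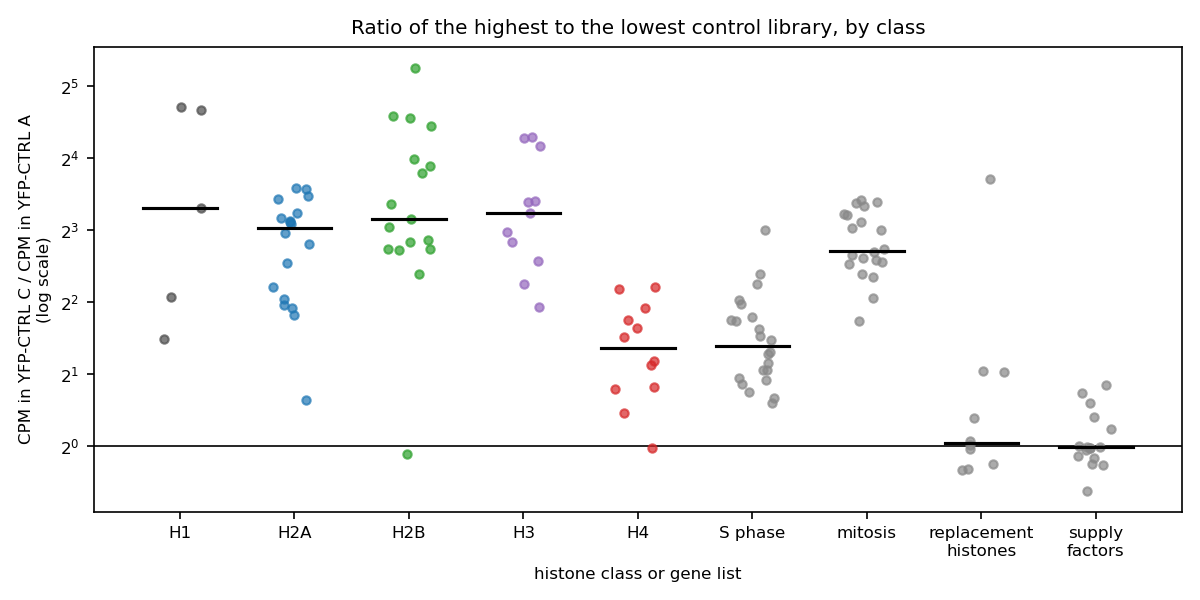
The ratio of CPM in YFP-CTRL C to CPM in YFP-CTRL A (log scale) for each tested histone gene by class, and for the genes of 4 other lists in grey. Points are genes and black bars are medians: H1, H2A, H2B and H3 have medians from 8.15 to 9.92, H4 has 2.57, and the S phase list has 2.62.

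Among the linker histones, Hist1h1e was the most abundant, at 336, 343 and 377 CPM in Meis1-OE and 83.9, 254 and 353 CPM in YFP-CTRL. Hist1h1c, an H1 gene whose mRNA can also be polyadenylated, was at 209, 212 and 223 CPM in Meis1-OE and 77.3, 174 and 218 CPM in YFP-CTRL. Both were lowest in YFP-CTRL A, and their YFP-CTRL C values lay among or next to those of Meis1-OE. Hist1h1b was far steeper, at 97.7, 102 and 95.7 CPM in Meis1-OE and 3.74, 18.4 and 94.7 CPM in YFP-CTRL. Its 3 Meis1-OE values all lay above the controls, but the closest pair was 95.7 and 94.7 CPM. Hist1h1a, chosen after its values were seen, had the same steepness, with 2.24, 24.2 and 58.6 CPM in YFP-CTRL and 34.3, 48.8 and 43.7 CPM in Meis1-OE, all below YFP-CTRL C. Hist1h1t, a testis H1, never exceeded 9 counts and was not tested.

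Of the H2A genes, Hist1h2ak was at 251, 294 and 254 CPM in Meis1-OE and 33.6, 95.5 and 262 CPM in YFP-CTRL. Hist2h2aa1 and Hist2h2aa2 have identical coding sequences, and Hist2h2aa2 was at 44.9, 5.37 and 0 CPM in Meis1-OE and 0, 0 and 8.38 CPM in YFP-CTRL, a spread within 1 group that no other tested H2A gene had. Summed, the pair was at 271, 283 and 272 CPM in Meis1-OE and 78.7, 146 and 316 CPM in YFP-CTRL, so the sum is the usable value. Hist1h2an, in the Hist1 cluster, was at 55.8, 52.5 and 57.5 CPM in Meis1-OE and 4.74, 9.36 and 50.9 CPM in YFP-CTRL, without overlap. The other tested H2A genes had ratios of YFP-CTRL C to YFP-CTRL A from 1.56 (Hist2h2ab, at 3.56 to 6.13 CPM throughout, named after its values were seen) to 12.

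Of the H2B genes, Hist1h2br was at 287, 275 and 300 CPM in Meis1-OE and 45.2, 64.2 and 301 CPM in YFP-CTRL. Hist1h2bg was at 243, 254 and 273 CPM in Meis1-OE and 38.6, 89.5 and 254 CPM in YFP-CTRL, and Hist1h2bq was at 228, 213 and 241 CPM in Meis1-OE and 32.7, 73.5 and 237 CPM in YFP-CTRL. All 3 had YFP-CTRL C inside or at the edge of the Meis1-OE range, and Hist1h2br and Hist1h2bq share an identical coding sequence. Hist1h2bn was at 17.3, 18.7 and 19.9 CPM in Meis1-OE and 1.21, 4.26 and 16.6 CPM in YFP-CTRL. The steepest member of any class was Hist1h2bm, whose promoter is printed above, at 44.5, 40.1 and 41.4 CPM in Meis1-OE and 1.21, 5.27 and 45.7 CPM in YFP-CTRL, a 37.9-fold ratio of YFP-CTRL C to YFP-CTRL A. Hist2h2be, an H2B gene known to give a polyadenylated mRNA, was the only member with a lower level in YFP-CTRL C than in YFP-CTRL A among the non-H4 members with such a ratio, at 1.2 to 1.94 CPM in all 6 libraries (both genes were picked after their values were seen). Of the 3 members listed as also giving polyadenylated mRNA, Hist2h2be had a ratio of YFP-CTRL C to YFP-CTRL A of 0.928 and Hist1h1c had 2.82. Hist1h2bc had 6.66, at 112, 112 and 120 CPM in Meis1-OE and 17.8, 30 and 118 CPM in YFP-CTRL. Other members with several annotated exons, such as Hist1h2br and Hist1h2bq (7 each), were not on this list.

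Of the H3 genes, Hist2h3c2 was the most abundant member of all, at 627, 558 and 666 CPM in Meis1-OE and 32.2, 114 and 629 CPM in YFP-CTRL. Its neighbour Hist2h3c1 held 0 to 2.5 CPM in any library, and the pair summed to 627, 560 and 668 CPM in Meis1-OE and 34.7, 115 and 629 CPM in YFP-CTRL. Hist2h3b was at 261, 235 and 266 CPM in Meis1-OE and 44.2, 91.9 and 263 CPM in YFP-CTRL. Hist1h3g was at 88.9, 73.5 and 82.2 CPM in Meis1-OE and 4.03, 14.7 and 77.8 CPM in YFP-CTRL, with YFP-CTRL C inside the Meis1-OE range.

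Of the H4 genes, Hist1h4d was at 261, 282 and 282 CPM in Meis1-OE and 222, 376 and 306 CPM in YFP-CTRL, so its highest value was in YFP-CTRL B. It made up 15.5% of the histone sum in YFP-CTRL A and 11.7% in YFP-CTRL B, where it ranked first among all 69 members, and 3.83% to 4.23% in the other 4 libraries. Hist1h4c was at 27.4, 25.6 and 25.3 CPM in Meis1-OE and 29.7, 47.5 and 29.3 CPM in YFP-CTRL, the only member with all 3 Meis1-OE values below all 3 controls. Neither gene was at its lowest in both YFP-CTRL A and B, as most H2B genes were. Hist1h4a, named after its values were seen, was at 142, 136 and 134 CPM in Meis1-OE and 72.7, 158 and 159 CPM in YFP-CTRL. These 3 are the H4 genes with a CCAAT match, and their ratios of YFP-CTRL C to YFP-CTRL A were 0.986 to 2.19 (median 1.38), against 1.76 to 4.61 (median 3.25) for the 8 tested H4 genes with a promoter entry and no match. The 2 ranges overlap, no test was made, and Hist1h4c and Hist1h4d had already been singled out by their low ratios. Over all classes, the order was the other way: the 47 members with a CCAAT match had a median ratio of 8.50, and the 8 without one, all H4, had 3.25.

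Per kilobase of gene length, for the 61 members with a RefSeq gene of at most 1000 bases, Hist2h3c2 led in every Meis1-OE library (951 ± 84.9 CPM per kb, SD, n = 3), followed by Hist1h4d (684 ± 30 CPM per kb) in each. The annotation behind the counts is not given, and other gene lengths could change the order. In YFP-CTRL A, Hist1h4d led at 553 CPM per kb, with Hist1h4a next at 160 and Hist2h3c2 at 49.6 CPM per kb. In YFP-CTRL B, Hist1h4d led at 936 CPM per kb, with Hist1h4a next at 348 CPM per kb. YFP-CTRL C had the order of Meis1-OE for the first 2 places, at 969 CPM per kb for Hist2h3c2 and 761 CPM per kb for Hist1h4d.

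**Figure D4:**
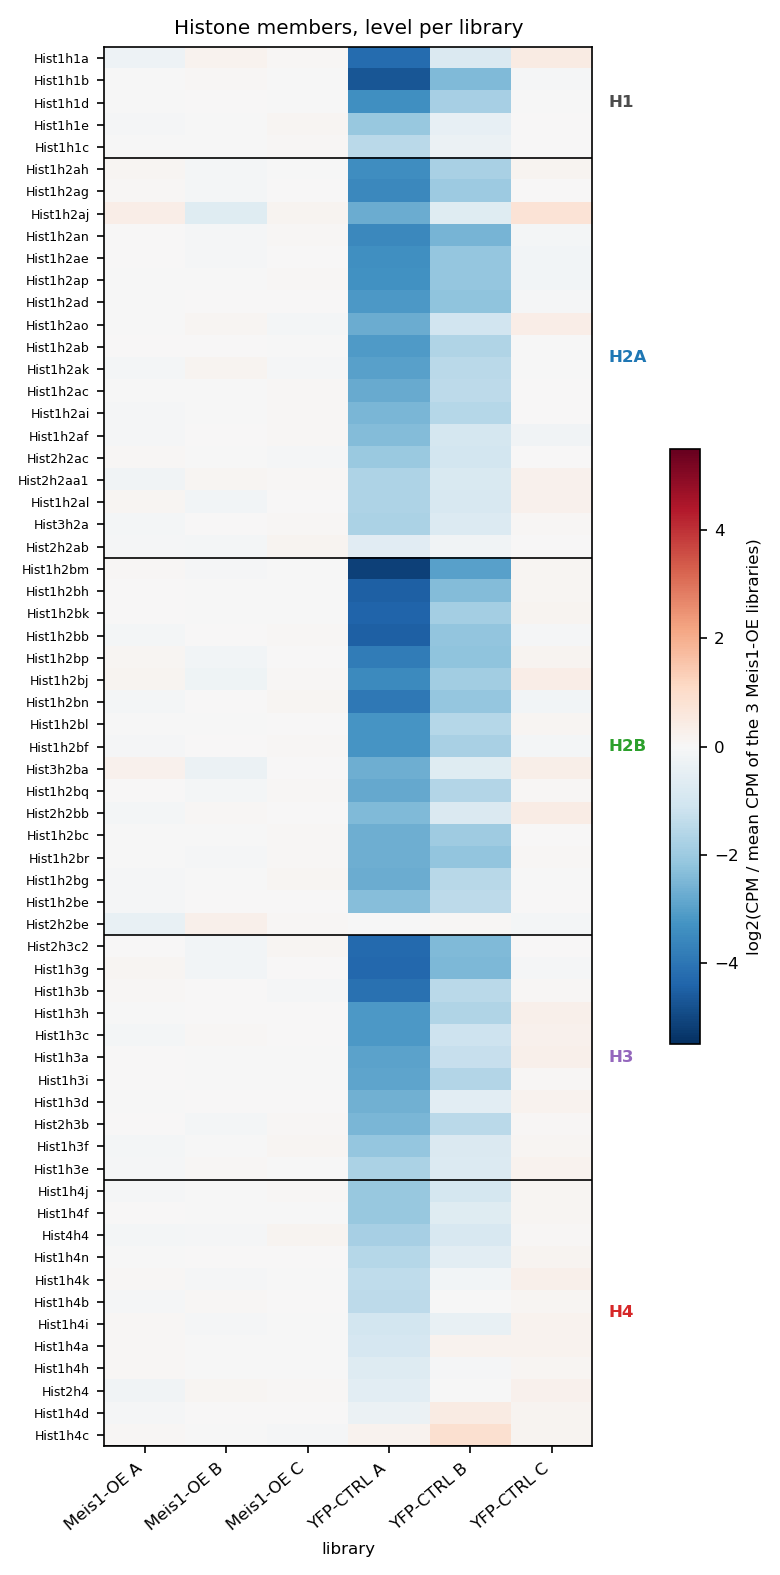
Level of 63 tested histone genes in each library as log2 of CPM over the mean CPM of the 3 Meis1-OE libraries, grouped by class and sorted within a class by the ratio of YFP-CTRL C to YFP-CTRL A. Hist2h2aa2 and Hist2h3c1, which have 3 or fewer counts in some libraries, are left out. The columns of YFP-CTRL A and B are blue in H1, H2A, H2B and H3, the H4 block is pale, and YFP-CTRL C is close to white.

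The second comparison was Meis1-OE against YFP-CTRL. In edgeR's quasi-likelihood fit, with p-values adjusted by Benjamini-Hochberg over 16065 genes, 0 of 65 tested members were higher and 0 were lower at an adjusted p under 0.05, where 4.14% and 2.73% of all genes tested were called. At an unadjusted p under 0.05, edgeR called 0 of 65 members, against 26.2% of genes. DESeq2 called 1 at that level and 0 after adjustment, where it called 6.21% of genes higher and 6.14% lower. DESeq2 gave no p-value for Hist1h2bm, the member with the highest ratio of YFP-CTRL C to YFP-CTRL A. The fitted log2 fold change was positive for 63 of 65 members, with a median of 0.88 (all genes 0.01) and a median SE of 0.62. The 2 negative values were those of Hist1h4c (-0.44, SE 0.20, adjusted p = 0.214 by edgeR) and Hist1h4d (-0.13, SE 0.19, adjusted p = 0.69 by edgeR). A miss at this threshold does not show that the groups had equal levels, since the SD of the controls was wide.

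Among the most abundant members, the log2 fold change was 1.26 (SE 0.89) for Hist2h3c2, 1.03 (SE 0.62) for Hist1h2ak, 1.07 (SE 0.65) for Hist1h2br, 0.93 (SE 0.56) for Hist2h3b and 1.01 (SE 0.58) for Hist1h2bg. It was smaller for the H1 genes Hist1h1e (0.61, SE 0.44) and Hist1h1c (0.46, SE 0.33). The largest values outside the unstable Hist2h2aa2 (2.56, SE 2.06) were those of Hist1h2an (1.35, SE 0.77), Hist1h3g (1.34, SE 0.88), Hist1h1b (1.34, SE 0.92) and Hist1h2bn (1.33, SE 0.76). The lowest adjusted p of any member was 0.214 by edgeR. By class, the median log2 fold change was 0.61 for H1, 0.98 for H2A, 1.05 for H2B, 0.83 for H3 and 0.29 for H4.

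All 3 Meis1-OE libraries lay above all 3 YFP-CTRL libraries for 9 of 65 members (13.8%), against 17.2% of all genes, and below them for 1 (1.54%), against 15.9%. The 9 were Hist1h1b, Hist1h1d, Hist1h2ad, Hist1h2ae, Hist1h2af, Hist1h2an, Hist1h2ap, Hist1h2bf and Hist1h2bn, 2 H1, 5 H2A and 2 H2B genes. The share above was near that of all genes, and the share below was under it. The members were measured in the same libraries, so these placements are not independent of each other.

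The outcome turned on 1 control library. Without YFP-CTRL C, 45 of 65 members (69.2%) were higher in Meis1-OE and 0 were lower by edgeR, against 16.5% of 16443 genes called higher, and the median log2 fold change was 1.84. The 45 were 2 of 5 H1, 16 of 19 H2A, 14 of 17 H2B, 10 of 12 H3 and 3 of 12 H4 genes. In that fit, Hist1h2br had a log2 fold change of 2.38 (adjusted p = 0.00068 by edgeR), Hist2h3c2 3.06 (adjusted p = 0.00754 by edgeR) and Hist1h4d -0.14 (adjusted p = 0.678 by edgeR). Without YFP-CTRL A, 0 of 65 were called, against 3.73% of genes called higher, and the median was 0.50. Leaving out any other single library also gave 0 members.

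With the growth score as a covariate in the edgeR fit, 0 of 65 members were called, against 4.03% of genes, and the median log2 fold change went from 0.88 to -0.18, with 12 positive and 53 negative. Over all genes tested, 8162 were positive and 7903 negative in that fit. The members were measured in the same 6 libraries, so their signs are not independent of each other. Among the H4 members, 0 of 12 were positive. As a description with 1 control library and no test, the Meis1-OE mean of the class sum divided by that of YFP-CTRL C (growth score 5.83) was 0.984 for H1, 0.981 for H2A, 0.957 for H2B, 0.937 for H3 and 0.894 for H4. Low growth scores occurred in YFP-CTRL A and B and in no Meis1-OE library, so for these 2 libraries vector and growth cannot be told apart.

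**Figure D5:**
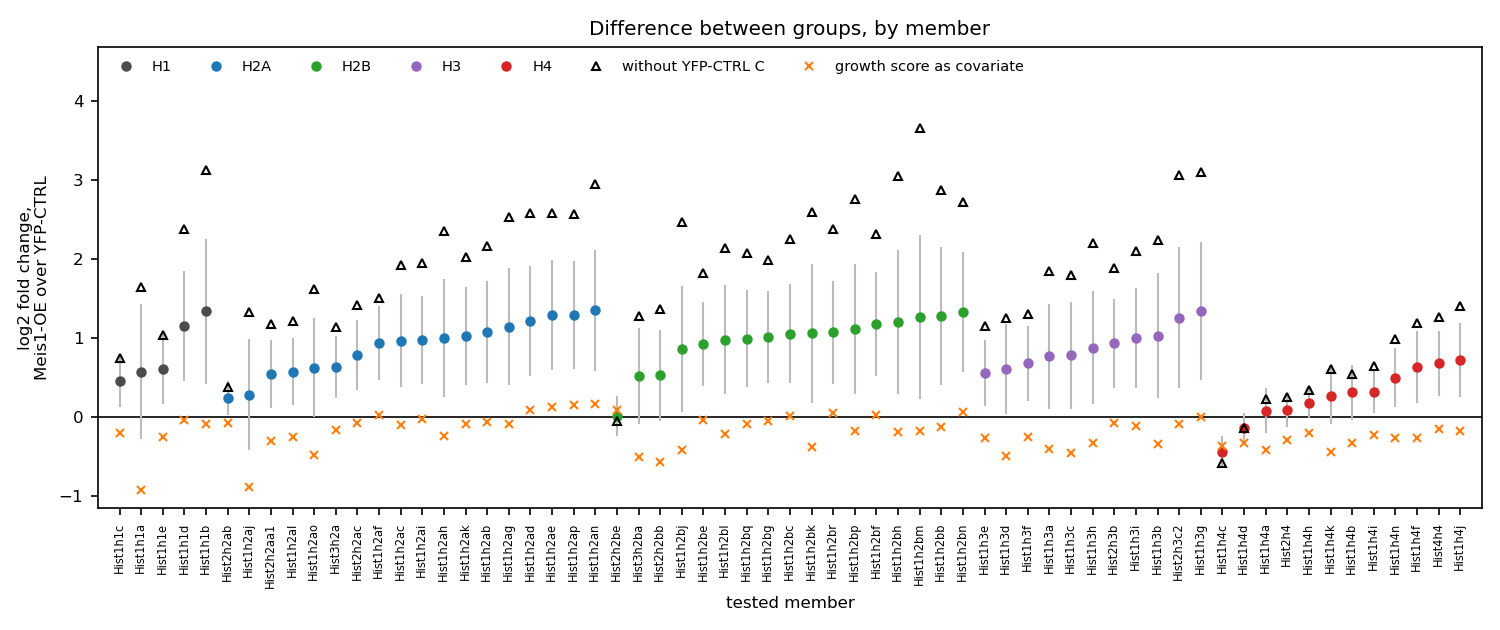
Log2 fold change of Meis1-OE over YFP-CTRL for 63 tested histone genes by class, with coloured points and bars for the edgeR estimate ± SE on all 6 libraries, open triangles for the fit without YFP-CTRL C and orange crosses for the fit with the growth score as a covariate. Hist2h2aa2 and Hist2h3c1 are left out. Nearly all coloured points lie above 0 (61 of the 63), the triangles lie higher in H1, H2A, H2B and H3, and the crosses lie near or below 0.

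Genes that control the supply of histone mRNA formed the next list. Of 16 tested supply factors, 0 were higher and 1 was lower in Meis1-OE by edgeR, with a median log2 fold change of -0.02, while DESeq2 called 3 lower. The one called was Upf1, an RNA helicase that takes part in histone mRNA decay at the end of S phase, at 108, 100 and 108 CPM in Meis1-OE and 212, 180 and 139 CPM in YFP-CTRL (log2 fold change -0.75, SE 0.16, adjusted p = 0.041 by edgeR). Over all genes, 2.73% were called lower in that fit. The Upf1 call was lost with the growth score as a covariate and without YFP-CTRL A, where 0 supply factors were called. Sympk, the scaffold of the histone 3' end cleavage complex, was at 142 to 156 CPM in Meis1-OE and 153 to 168 CPM in YFP-CTRL. Cpsf3, the nuclease of that complex, was at 58.1, 57.6 and 55.5 CPM in Meis1-OE and 79.4, 82.6 and 71 CPM in YFP-CTRL, and its partner Cpsf2 was at 79.1, 87.5 and 85.2 CPM against 111, 114 and 109 CPM, both with an adjusted p of 0.053 by edgeR. Npat, the activator of histone transcription that the cyclin E kinase switches on, stayed at 45.5 to 52 CPM in all 6 libraries. Slbp, whose protein binds the stem-loop printed above, was at 34.7, 37 and 38.4 CPM in Meis1-OE and 26.5, 25.2 and 35.1 CPM in YFP-CTRL, a 1.32-fold ratio of YFP-CTRL C to YFP-CTRL A (Npat and Slbp were picked after their values were seen).

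Genes listed as replacement histones were set beside the members, and the independence of each from DNA replication was not tested. Of 11 listed, 10 were tested and 0 were called by edgeR in either direction (1 lower at an unadjusted p under 0.05), and DESeq2 called 0 as well. H3f3b, which encodes H3.3, was at 227, 258 and 255 CPM in Meis1-OE and 282, 497 and 238 CPM in YFP-CTRL, with its highest value in YFP-CTRL B. The ratio of H3f3b to the H3 sum was 0.122, 0.145 and 0.133 in Meis1-OE and 1.23, 0.794 and 0.12 in YFP-CTRL. H3f3a, the other H3.3 gene, stayed at 159 to 202 CPM. H1f0, the linker histone of resting and differentiated cells, was at 128, 135 and 152 CPM in Meis1-OE and 97.7, 323 and 128 CPM in YFP-CTRL. H2afx, which marks DNA breaks when phosphorylated, was at 141 to 158 CPM in Meis1-OE and 87.9, 192 and 181 CPM in YFP-CTRL. Cenpa, the centromeric H3 made in late cell cycle and picked after its values were seen, had a 13.1-fold ratio of YFP-CTRL C to YFP-CTRL A, at 58.5, 58.4 and 58.6 CPM in Meis1-OE and 3.33, 16.1 and 43.5 CPM in YFP-CTRL.

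Of 11 histone chaperones, which carry new histones to DNA, 0 were called by edgeR or by DESeq2 and 9 had a positive log2 fold change (median 0.22). Chaf1a, a subunit of the replication-coupled assembly factor CAF-1, was at 55, 52.8 and 52.5 CPM in Meis1-OE and 17.9, 21.1 and 63 CPM in YFP-CTRL. Atrx, which deposits H3.3, was at 152 to 164 CPM in Meis1-OE and 150, 130 and 150 CPM in YFP-CTRL. Mcm2, a replicative helicase subunit that also binds H3 and H4, was at 132, 132 and 137 CPM in Meis1-OE and 76.4, 68.4 and 159 CPM in YFP-CTRL. Rbbp7, a histone-binding partner of several chaperones, stayed at 106 to 126 CPM. In the 22 S phase genes, 22 log2 fold changes were positive and 0 were called by edgeR (4 at an unadjusted p under 0.05), while DESeq2 called 2. Rrm1 and Rrm2, the subunits of the enzyme that makes deoxynucleotides, were at 176 to 182 and 170 to 189 CPM in Meis1-OE, and at 52.9, 78.6 and 176 CPM and 38.8, 63.2 and 135 CPM in YFP-CTRL. Mcm3, a helicase subunit like Mcm2, was at 143 to 150 CPM in Meis1-OE and 71.7, 75.4 and 159 CPM in YFP-CTRL. All 4 of these S phase genes had their YFP-CTRL A and B values below the other 4 libraries. In the 20 mitosis genes, 20 were positive and 0 were called by edgeR or DESeq2. Beside Mki67, the most abundant were the topoisomerase Top2a (259 to 293 CPM in Meis1-OE and 47.2, 109 and 278 CPM in YFP-CTRL), the kinetochore gene Cenpf (143 to 159 CPM in Meis1-OE and 12.1, 51 and 122 CPM in YFP-CTRL) and the spindle factor Tpx2 (115 to 124 CPM in Meis1-OE and 25.1, 58.7 and 105 CPM in YFP-CTRL). Without YFP-CTRL C, where edgeR called 16.5% of all genes higher and 15.2% lower, it called 22 of 22 S phase genes, 19 of 20 mitosis genes and 6 of 11 chaperones higher (1 chaperone lower), 4 of 16 supply factors higher and 3 lower, and 1 of 10 replacement histones higher and 2 lower.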

How the data were processed

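The authors deposited 1 table of estimated counts per gene for 6 ribodepleted total RNA libraries, not normalised. The submitters' processing notes name the build mm10, while the aligner, counter and annotation are not given in the sources used here. Of the 69 members, 63 had a count that was not whole (tolerance 5e-04), so reads shared between near-identical copies may have been split, and 8 members had a coding sequence identical to another. Counts were rounded to whole numbers. Tests used R 4.3.3 with edgeR 4.0.16 (TMM, filterByExpr, quasi-likelihood F-test on group, Benjamini-Hochberg threshold 0.05 over all genes tested), and the SE of a log2 fold change was its size divided by the square root of F. DESeq2, which the study used in an older version, was run here as version 1.42.0. It was an alternative beside other scalings, filters, a robust fit, a replicate block, the growth score as a covariate and leaving out each library. A script was tested on simulated data. The study states 3 independent replicates per group. Both 3 libraries a group and the depth (34176642 to 47956605 counts per library) limit the precision. The members and lists were chosen with earlier results of these data known. Named members were the 10 with the highest mean CPM, any past the threshold, the 5 with the largest positive log2 fold change and those with a negative one (up to 5), and of each list the 4 with the highest mean CPM and any past the threshold; others are marked in the text. A ratio was not formed where a library had 3 counts or fewer.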

Additional observations from a re-analysis of the deposited data

How the results depend on the processing

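The finding of 0 members called in either direction held in every alternative on all 6 libraries and when any library other than YFP-CTRL C was left out (members higher 0 to 45 and lower 0 to 0 over the single omissions). The count of all genes called was less steady: 115 to 2717 higher and 16 to 2498 lower over the omissions, 1048 higher and 180 lower with library totals (where the median of all genes moved to 0.15 and that of the members to 1.03), 1128 and 1115 with DESeq2, and 367 and 281 with the growth score as a covariate. The difference between the groups in the mean of log2 summed histone level was 1.10 (no test) and 0.51 to 1.68 over the omissions. With the S phase sum as the denominator it was 0.27, and the direction depended on the denominator. The mean ratio of the histone sum to the mitosis sum was 3.44 in Meis1-OE and 4.41 in YFP-CTRL. To the sum of both growth lists, the mean ratio was 1.90 in Meis1-OE and 1.92 in YFP-CTRL. With the growth score as a covariate, the log2 fold change changed sign for Hist2h3c2 (-0.094), Hist1h1e (-0.26), Hist2h2aa1 (-0.30), Hist1h2ak (-0.088), Hist2h3b (-0.080), Hist1h2bg (-0.047), Hist1h1c (-0.20), Hist1h2bq (-0.092), Hist1h3g (-0.0023) and Hist1h1b (-0.084). Hist1h4d changed sign with library totals (0.016) and without YFP-CTRL B (-0.33 to 0.065 over the omissions), and Hist2h2aa2 without Meis1-OE A (-0.072 to 12.49), and the cause was not tested.

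The column letters are not stated to pair the samples. Deviations from the group means correlated at 0.245 for letter A, 0.19 for B and 0.0809 for C, and Meis1-OE C correlated best with YFP-CTRL B (0.249). With a replicate block by letter, 0 members were called and 189 genes were lower.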
